A study of Mus musculus with 10 samples.

Results

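Annexins are proteins that bind membranes rich in acidic phospholipids when calcium rises. They share a conserved core of repeats that carries the calcium and lipid sites, and each has its own amino-terminal tail, to which S100 proteins and other partners bind. They are known for membrane trafficking, repair of torn plasma membranes, control of inflammation and fibrinolysis, and in liver for the abundance of annexin A6.

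The mouse annexin genes Anxa1 to Anxa8 and Anxa11 were described here, 9 genes in all, across 3 kinds of cells. For each symbol the transcript cluster (the set of array probes summarised into 1 value) with the highest mean over the 10 arrays was taken, among clusters that the platform annotation gives to exactly 1 gene. Of the 9 annexins, 8 had such a cluster, out of 22180 genes measured in this way. Anxa11 had none, because its 3 clusters are shared with the gene models Gm2274 and Gm2260.

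The arrays hold RNA of hepatocyte-like cells differentiated from mouse embryonic stem cells (labelled ES_HLC, 3 arrays), of adult hepatocytes with liver as their source (Ad_Hep, 3 arrays) and of undifferentiated embryonic stem cells (mESC, 4 arrays). All 10 samples carry the strain label C.FVB-Tg(CAG-luc, GFP)L2G85Chco with the suffix /FathJ, that is, transgenes for luciferase and GFP (a fluorescent reporter) driven by the broadly active CAG promoter, so the transgenes are shared by all 3 kinds. All 10 also carry a label of a passage below 20, the adult hepatocytes included. How the cells were differentiated, and the age and sex of the animals, is not given in these sources. The series title names NKG2D, a receptor by which natural killer cells recognise targets, and the killing of hepatic cells made from stem cells. The labels number biological replicates but do not say whether these came from separate cultures or animals, so p-values measure only the spread between these samples. In such bulk samples, fewer cells of a type and less RNA per cell cannot be told apart. Precision is limited by how few arrays each kind has.

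The label of hepatocyte-like cells was set against marker lists. The mean log2 level of 10 hepatocyte markers was 5.43, 6.02 and 6.76 on ES_HLC arrays 1 to 3, against 12.05 to 12.13 in adult hepatocytes and 4.80 to 4.90 in embryonic stem cells. Against adult hepatocytes all 10 of these markers fell in ES_HLC, where 9.12% of all genes were lower. Against mESC 3 of 10 rose, where 8.61% of all genes were higher. They were Fgb (3.18 ± 0.27), Ttr (3.10 ± 0.32) and Apoa1 (1.71 ± 0.27), without overlap of the 2 kinds. The data therefore place ES_HLC far below adult hepatocytes in hepatocyte transcripts, and the name ES_HLC is used below as the label only.

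ES_HLC replicate 3 stood apart from the other 2 arrays of its kind. Its level of Alb, the gene of serum albumin, was 10.80, against 4.85 and 5.14 on ES_HLC arrays 1 and 2. Its levels of the stem cell factor Nanog (7.12 against 5.08 and 5.09) and of the collagen gene Col1a1 (9.80 against 12.80 and 11.92) also differed. Each annexin call below was repeated without this array, and none changed.

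The sequences upstream of 4 annexin genes (Anxa1, Anxa2, Anxa5 and Anxa8) are shown because their transcripts were called between the kinds of cells and each has a single RefSeq window. They are the 250 bases before the gene's start on the gene's strand, from RefSeq on build GRCm38.p6. The windows lie at chr19:20390672-20390921 on the minus strand for Anxa1, chr9:69453433-69453682 on the plus strand for Anxa2, chr3:36475888-36476137 on the minus strand for Anxa5 and chr14:34085729-34085978 on the plus strand for Anxa8. Capitals mark matches to 5 motifs searched on both strands: AP-1 (TGANTCA), TEAD (GGAATG), the Sp1 GC box (GGGCGG), the CCAAT box (CCAAT) and the TATA box (TATAAA).
Anxa1: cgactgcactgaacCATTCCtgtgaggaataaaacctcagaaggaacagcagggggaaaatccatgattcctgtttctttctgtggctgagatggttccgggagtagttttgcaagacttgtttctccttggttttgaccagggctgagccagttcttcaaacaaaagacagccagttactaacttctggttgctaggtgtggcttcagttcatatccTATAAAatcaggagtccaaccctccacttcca
Anxa2: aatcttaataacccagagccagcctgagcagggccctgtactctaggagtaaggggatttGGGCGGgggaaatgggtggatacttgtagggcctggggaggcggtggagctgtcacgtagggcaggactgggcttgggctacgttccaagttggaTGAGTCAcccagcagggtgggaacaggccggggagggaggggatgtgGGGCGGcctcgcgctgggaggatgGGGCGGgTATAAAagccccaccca
Anxa5: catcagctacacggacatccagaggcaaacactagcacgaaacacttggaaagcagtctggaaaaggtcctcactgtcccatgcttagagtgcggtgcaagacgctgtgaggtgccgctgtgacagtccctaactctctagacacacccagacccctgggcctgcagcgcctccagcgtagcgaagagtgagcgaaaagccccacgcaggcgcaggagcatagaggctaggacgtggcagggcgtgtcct
Anxa8: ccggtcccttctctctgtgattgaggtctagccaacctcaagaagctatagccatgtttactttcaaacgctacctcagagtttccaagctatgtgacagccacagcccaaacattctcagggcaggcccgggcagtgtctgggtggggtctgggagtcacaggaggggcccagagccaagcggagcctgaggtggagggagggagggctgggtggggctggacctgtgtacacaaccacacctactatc

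The Anxa1 window held a TEAD match 236 bases and a TATA box 32 bases before the start, with 46.0% G and C and 2 CpG dinucleotides. The Anxa2 window held an AP-1 match 95 bases, GC boxes 190, 48 and 24 bases and a TATA box 17 bases before the start, with 62.4% G and C and 9 CpG. The windows of Anxa5 (58.8% G and C, 13 CpG) and Anxa8 (58.0%, 4 CpG) held none of the 5 motifs. Over 32851 windows of the same length, 6.7% held an AP-1 match, 12.6% a TEAD match, 32.7% a GC box, 33.8% a CCAAT box and 12.4% a TATA box, and the median window had 52.4% G and C and 6 CpG. These matches describe the letters only. Windows were found for 7 of the 9 genes, without Anxa3 and Anxa6.

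Against embryonic stem cells, 5 of the 8 measured annexins rose in ES_HLC (Anxa1, Anxa2, Anxa3, Anxa5 and Anxa6) and 0 fell. A gene was called at a limma adjusted p under 0.05 with a size of difference of 1 or more on the log2 scale. Among all 22180 genes, 16.0% were called in this comparison, 8.61% higher and 7.35% lower. The median difference of the 8 annexins was 2.81 on the log2 scale, against -0.01 over all genes. Against adult hepatocytes 5 of 8 rose as well (Anxa1, Anxa2, Anxa3, Anxa5 and Anxa8) and 0 fell, where 23.0% of all genes were called, 13.9% higher and 9.12% lower. Here the median was 3.52, against -0.04 over all genes. These comparisons share the ES_HLC arrays, so they are not independent of each other.

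**Figure D1:**
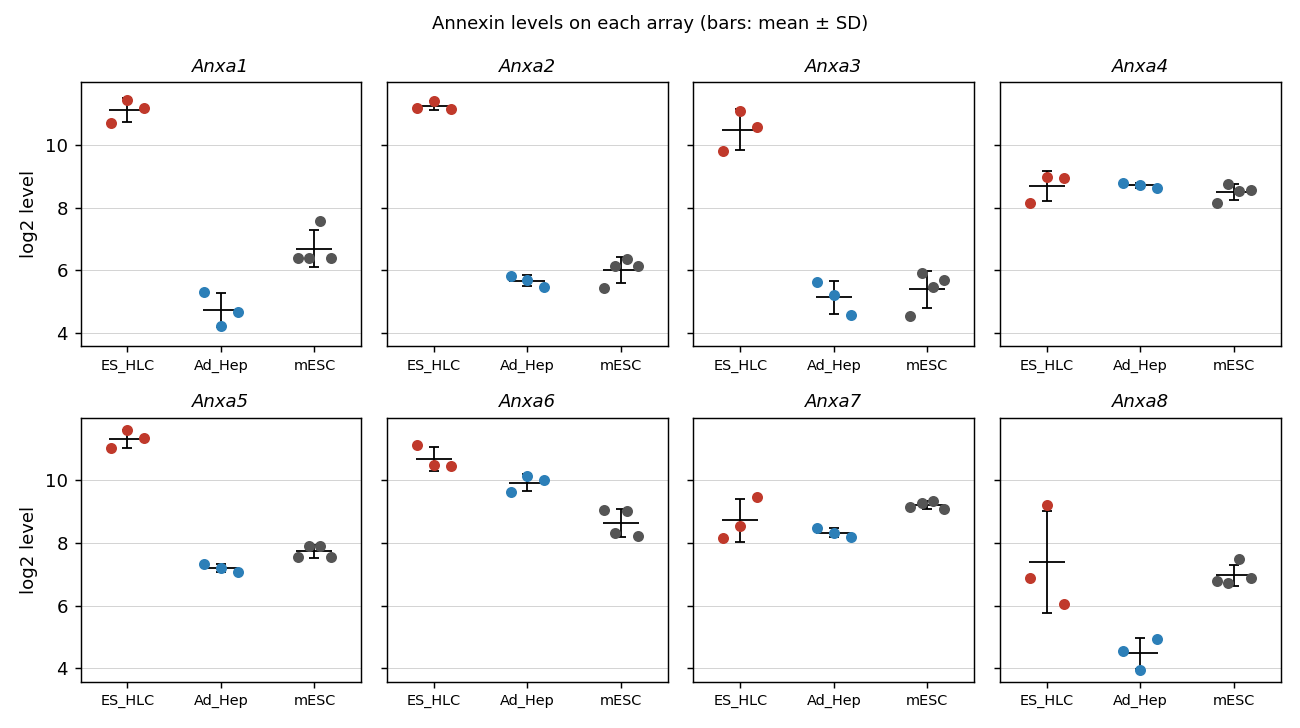
Log2 level of each measured annexin on each array (points), with the mean and SD of each kind of cells, in the order ES_HLC (3 arrays), Ad_Hep (3) and mESC (4). The ES_HLC points of Anxa1, Anxa2, Anxa3, Anxa5 and Anxa6 all lie above those of both other kinds, while the 3 kinds of Anxa4 overlap. Heights are compared within a panel only, since each panel is another probe set.

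Anxa2 encodes the annexin that pairs with S100A10 at the plasma membrane and brings plasminogen and tissue plasminogen activator together there. Its log2 level was 11.18, 11.41 and 11.15 on the 3 ES_HLC arrays, against 5.42, 6.15, 6.35 and 6.13 on the 4 mESC arrays. All ES_HLC arrays were high and all mESC arrays low, with no overlap. The difference was 5.23 ± 0.21 (SE), or 37.5-fold, with a limma adjusted p of 8.09e-09. Adult hepatocytes were at 5.83, 5.71 and 5.47, within the range of the stem cells. Against them ES_HLC was higher by 5.58 ± 0.23, or 47.7-fold (adjusted p = 6.18e-10). Without ES_HLC replicate 3 these differences were 5.28 and 5.62.

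Anxa1 encodes a glucocorticoid-induced protein that acts on formyl peptide receptors and is known for ending inflammation. Its log2 level was 10.69, 11.44 and 11.18 in ES_HLC, against 5.30, 4.24 and 4.68 in adult hepatocytes. The groups lay far apart, and every adult value was below 5.5, the level under which a signal was counted as dim. The difference was 6.37 ± 0.35, or 82.4-fold (limma adjusted p = 1.16e-08). The stem cells held 6.40, 6.38, 7.58 and 6.40, between the other kinds and without overlap with either. Against them ES_HLC was higher by 4.41 ± 0.33, or 21.3-fold (adjusted p = 7.62e-07). Without ES_HLC replicate 3 the differences were 6.33 against Ad_Hep and 4.37 against mESC.

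Anxa3 encodes an annexin known in humans from the granules of neutrophils. It stood at 9.80, 11.09 and 10.58 in ES_HLC, against 4.55, 5.90, 5.45 and 5.69 in mESC. The ES_HLC arrays spread over more than 1 log2 unit yet did not meet the stem cell range. ES_HLC was higher by 5.09 ± 0.36, or 34.1-fold (limma adjusted p = 5.76e-07). With 5.63, 5.20 and 4.58, adult hepatocytes overlapped the stem cells, and ES_HLC exceeded them by 5.35 ± 0.39, or 40.9-fold (adjusted p = 1.98e-07). Ad_Hep replicates 2 and 3 and mESC replicates 1 and 3 were dim, under 5.5, which limits what both fold changes can tell.

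Anxa5 encodes the annexin whose tight binding to phosphatidylserine made it the usual probe for dying cells. Its level was 11.03, 11.61 and 11.34 in ES_HLC, against 7.56, 7.92, 7.91 and 7.54 in mESC. No array of one kind came near the other, and the difference was 3.59 ± 0.18, or 12.1-fold (limma adjusted p = 3.21e-08). Adult hepatocytes held 7.33, 7.20 and 7.07, all just below the lowest stem cell array. ES_HLC was higher than adult hepatocytes by 4.13 ± 0.19, or 17.5-fold (adjusted p = 2.23e-09).

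Anxa6, which has a duplicated core and binds the Ras regulator p120 RasGAP, followed another order. Its level was 11.13, 10.48 and 10.45 in ES_HLC, against 9.05, 8.31, 9.02 and 8.22 in mESC. The groups did not overlap, and ES_HLC was higher by 2.03 ± 0.26, or 4.10-fold (limma adjusted p = 6.37e-05). Adult hepatocytes lay between them at 9.63, 10.14 and 10.02. ES_HLC was above adult hepatocytes on every array, by 0.75 ± 0.27 with a 95% interval of 0.16 to 1.35 and an adjusted p of 0.0472, which is under the fold limit and so was not called. That p was 0.178 without ES_HLC replicate 1, and under cyclic loess normalization the difference was 0.29 with an adjusted p of 0.500. Adult hepatocytes rose against embryonic stem cells by 1.28 ± 0.26, or 2.43-fold (adjusted p = 0.0011).

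Anxa8, first known as a vascular anticoagulant protein, was the most uneven annexin within ES_HLC. Its level was 6.89, 9.22 and 6.06 in ES_HLC, against 4.57, 3.96 and 4.94 in adult hepatocytes. Replicate 2 of ES_HLC stood more than 2 log2 units above the other 2 arrays, and all 3 adult arrays were dim. ES_HLC was higher by 2.90 ± 0.60, or 7.48-fold (limma adjusted p = 0.00176), and by 1.99 without ES_HLC replicate 2. In mESC it stood at 6.79, 6.72, 7.48 and 6.87, inside the ES_HLC range. The difference of ES_HLC from mESC was 0.42, with a 95% interval of -0.78 to 1.63 (adjusted p = 0.658), and it took the other sign, -0.49, without ES_HLC replicate 2.

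**Figure D2:**
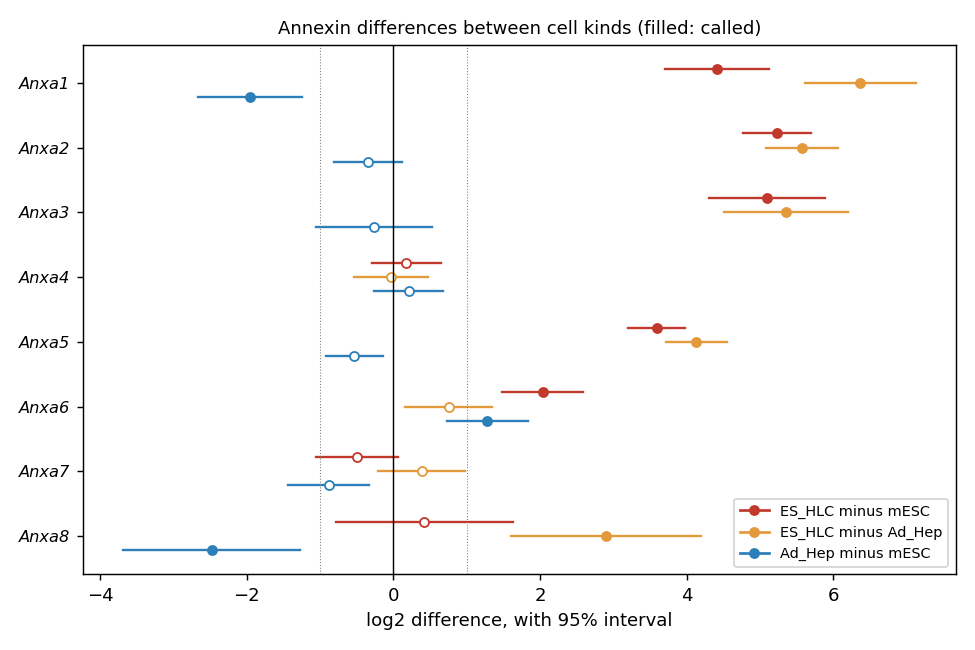
Log2 difference of each measured annexin in the 3 comparisons, with its 95% interval from the limma fit of all 10 arrays. Filled points were called, and dotted lines mark a difference of 1 either way. Anxa1, Anxa2, Anxa3 and Anxa5 lie beyond 3 in both comparisons of ES_HLC, and Anxa4 lies near 0 throughout.

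Anxa4 and Anxa7 met the limits of a call in no comparison. Anxa4 encodes an annexin of epithelial cells, and its level was 8.13, 8.98 and 8.94 in ES_HLC, 8.79, 8.73 and 8.63 in adult hepatocytes and 8.16, 8.76, 8.54 and 8.57 in mESC. All 3 kinds overlapped. Its 95% interval ran from -0.30 to 0.65 for ES_HLC against mESC and from -0.54 to 0.47 for ES_HLC against Ad_Hep.

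Anxa7, also called synexin for its part in membrane fusion during exocytosis, had a level of 8.15, 8.53 and 9.48 in ES_HLC, against 9.16, 9.29, 9.34 and 9.08 in mESC. Replicate 3 of ES_HLC lay above all 4 stem cell arrays and the other 2 lay below them. The difference was -0.50, with a 95% interval of -1.05 to 0.06 and a limma adjusted p of 0.185. Without replicate 3 it was -0.88 with an adjusted p of 0.00291, still under the fold limit. The adult arrays held 8.49, 8.33 and 8.18. ES_HLC exceeded them by 0.39, with an interval of -0.21 to 0.98, and by 0.0048 without replicate 3.

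In adult hepatocytes against embryonic stem cells 1 of 8 rose (Anxa6) and 2 of 8 fell (Anxa1 and Anxa8), where 26.6% of all genes were called, 11.0% higher and 15.6% lower. The median difference was -0.44, against 0.05 over all genes. Anxa1 fell by 1.95 ± 0.33 (limma adjusted p = 0.000281) and Anxa8 fell by 2.48 ± 0.56 (adjusted p = 0.00265). The adult arrays were dim for both genes. Anxa5 (-0.54, adjusted p = 0.0291) and Anxa7 (-0.88, adjusted p = 0.0134) passed the p limit but not the fold limit. Under cyclic loess normalization neither passed the p limit (Anxa5 -0.07, limma adjusted p = 0.796, and Anxa7 -0.40, adjusted p = 0.207). Anxa2, Anxa3 and Anxa4 differed by -0.35, -0.26 and 0.21, with 95% intervals that included 0.

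Anxa11, whose protein has a long tail and is known for tethering RNA granules to lysosomes, could not be separated from its neighbours on these clusters. Of its 3 shared clusters, 2 held identical values. The other averaged 8.37 ± 0.63 in ES_HLC, 8.74 ± 0.53 in adult hepatocytes and 9.49 ± 0.42 in mESC (SD). ES_HLC differed from mESC there by -1.12 ± 0.34, with a limma adjusted p of 0.0384 over all 41345 clusters. The identical pair gave -0.94 ± 0.34 with an adjusted p of 0.0745. What part of these values belongs to Anxa11 was not tested.

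The remaining annexins of the platform, Anxa9, Anxa10 and Anxa13, were called in 0 of 3 comparisons each. Anxa10 ranged from 2.45 to 3.15 in ES_HLC, against 3.05 to 3.63 in adult hepatocytes and 2.73 to 3.22 in mESC. Anxa13, known from the intestinal epithelium, ranged from 4.42 to 4.81 in ES_HLC, against 4.34 to 4.98 in Ad_Hep and 4.58 to 5.02 in mESC. Both were dim on all 10 arrays. Anxa9 ranged from 4.89 to 5.98 in ES_HLC, against 4.71 to 5.03 in Ad_Hep and 4.77 to 5.62 in mESC.

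Genes whose products bind annexins, or act beside them, were followed as a list of 14, of which 13 were measured. Against embryonic stem cells 9 of 13 rose in ES_HLC and 0 fell, with a median difference of 1.84. Against adult hepatocytes 8 of 13 rose and 1 fell, with a median of 1.15. These shares stand beside the 8.61% and 13.9% of all genes called higher.

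S100a10, the tail partner of annexin A2, was at 11.02, 11.49 and 11.14 in ES_HLC, against 8.44, 8.96, 9.20 and 8.69 in mESC. The groups did not overlap, and the difference was 2.39 ± 0.21 (limma adjusted p = 3.61e-06). Adult hepatocytes lay between them at 10.41, 9.88 and 9.93, so that S100a10 also rose in adult hepatocytes against mESC, by 1.25 ± 0.21, where Anxa2 differed by -0.35. ES_HLC exceeded adult hepatocytes in S100a10 by 1.15 ± 0.23 (adjusted p = 0.00139), and by 0.66 under cyclic loess, which is below the fold limit.

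S100a11, which binds the tail of annexin A1 and has a pseudogene of similar sequence, was at 10.98, 12.14 and 11.79 in ES_HLC, against 8.11, 8.99 and 9.17 in adult hepatocytes. All ES_HLC arrays were higher, by 2.87 ± 0.32 (limma adjusted p = 1.02e-05). Against mESC, at 9.74, 10.07, 9.55 and 9.82, ES_HLC was higher by 1.84 ± 0.30 (adjusted p = 0.00043). S100a6, another calcium-binding partner, had the largest difference from mESC of the 13 genes. It was at 9.80, 11.52 and 10.69 in ES_HLC, against 4.35, 5.52, 4.49 and 4.11 in mESC, a difference of 6.05 ± 0.38 (adjusted p = 1.83e-07). Its difference from adult hepatocytes, at 4.48, 4.38 and 4.28, was 6.29 ± 0.40. S100a6 was dim on all adult arrays and on mESC replicates 1, 3 and 4, which limits what both of its differences can tell. S100a4, dim on all arrays, differed by 0.84 from mESC and by 0.66 from Ad_Hep and was not called.

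Ahnak encodes a very large scaffold that binds the annexin A2 and S100A10 complex. It was at 9.05, 10.35 and 9.93 in ES_HLC, against 6.39, 5.82 and 6.06 in adult hepatocytes, and rose by 3.69 ± 0.29 (limma adjusted p = 3.65e-07). Against mESC it rose by 2.30 ± 0.27. Pla2g4a, the cytosolic phospholipase A2 whose activity annexin A1 is known to restrain, was at 8.37, 8.17 and 7.85 in ES_HLC, against 5.04, 5.02, 4.78 and 4.81 in mESC. Its difference was 3.21 ± 0.18 from mESC (adjusted p = 9.47e-08) and 3.20 ± 0.20 from Ad_Hep. Pla2g4a was dim on all mESC and adult arrays, which limits what both differences can tell.

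Plat, Plgrkt and Plg belong to plasmin formation. Plat, the tissue plasminogen activator, was at 9.17, 10.18 and 8.22 in ES_HLC, against 5.52, 5.90, 5.44 and 5.81 in mESC, and rose by 3.52 ± 0.35 (limma adjusted p = 1.01e-05). Its difference from adult hepatocytes was 3.65 ± 0.38. Plgrkt, a plasminogen receptor, rose by 1.08 ± 0.16 against mESC and by 1.19 ± 0.17 against Ad_Hep. Plg, the liver's plasminogen gene, was at 4.49, 4.56 and 5.63 in ES_HLC, against 12.38, 12.31 and 12.28 in adult hepatocytes, and fell by 7.43 ± 0.25 (adjusted p = 1.3e-10). It was at 4.67, 4.72, 4.66 and 4.52 in mESC, and the difference of ES_HLC from mESC was 0.25 and was not called.

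Sri, the gene of sorcin, which binds annexin A7, was at 9.18, 9.68 and 9.74 in ES_HLC, against 7.66, 7.58, 7.79 and 7.65 in mESC, and rose by 1.87 ± 0.16 (limma adjusted p = 3.19e-06). Against Ad_Hep it was higher by 1.14 ± 0.17, and by 0.78 under cyclic loess, below the fold limit. Rasa1, the gene of the p120 RasGAP that annexin A6 binds, rose by 1.15 ± 0.28 against mESC (adjusted p = 0.00697), a call that was lost at 0.99 with the replicate block or without mESC replicate 4, and just under 1 without mESC replicate 2. Pdcd6, which encodes a calcium sensor that binds annexins A7 and A11, differed by 0.18 from mESC and by 0.05 from Ad_Hep. Fpr2, a receptor of annexin A1, was dim on all arrays and differed by -0.18 and -0.55. Neither was called.

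**Figure D3:**
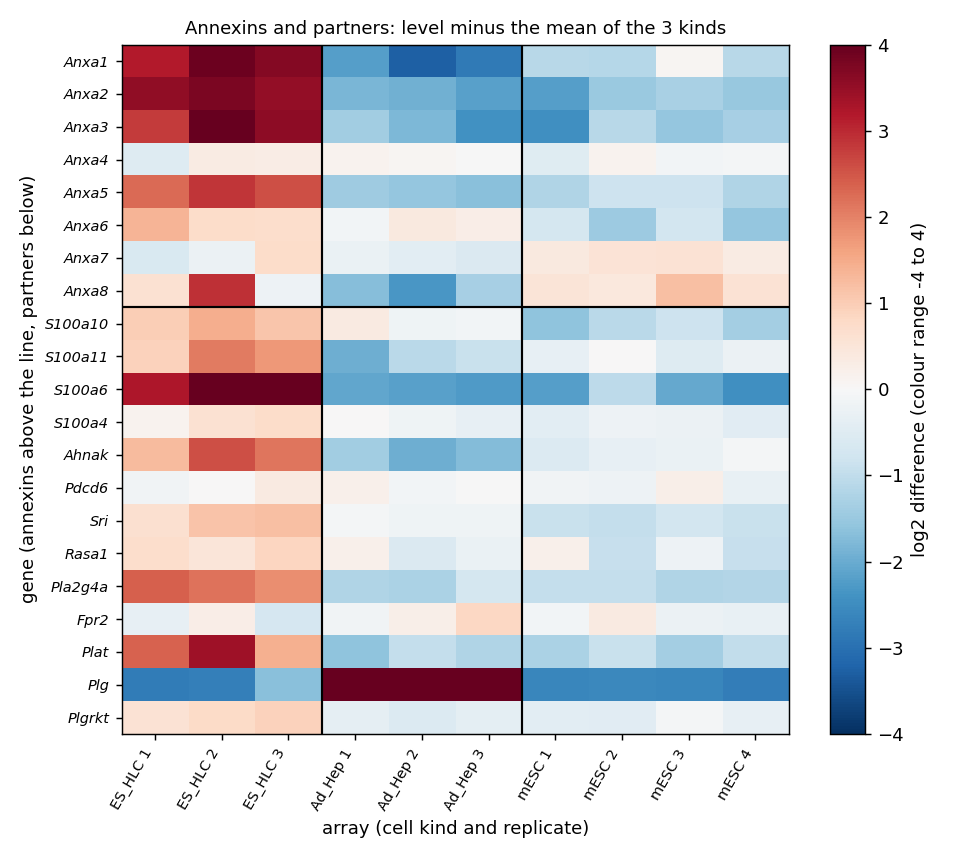
Log2 level of each annexin (above the line) and partner gene (below it) on each array, minus the mean of the 3 kinds of cells, with the colour range ending at 4 either way. Anxa1, Anxa2, Anxa3, Anxa5, Anxa6 and most partners, S100a6 among them, are higher on all 3 ES_HLC arrays than on each of the other 7. Plg is high on the 3 adult arrays.

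Annexins gather at torn plasma membrane together with dysferlin, calpains, caveolar proteins and ESCRT proteins. Of 17 measured genes of a membrane repair list of 18, 8 rose and 0 fell in ES_HLC against mESC, where 8.61% of all genes were higher and 7.35% lower, and the median difference was 0.61. The largest were Capn2 (calpain 2, 4.53 ± 0.23), Ehd2 (a membrane ATPase of caveolae, 3.76 ± 0.19), Cav1 (caveolin 1, 2.84 ± 0.33) and Dysf (dysferlin, 2.24 ± 0.41). Against adult hepatocytes 8 rose and 1 fell, beside 13.9% and 9.12% of all genes, with a median of 0.88. The largest were Myof (myoferlin, 4.93 ± 0.28), Ehd2 (3.59 ± 0.21), Cavin1 (a caveolar coat protein, 2.68 ± 0.21) and Cav1 (2.55 ± 0.35). Myof differed by 0.37 between ES_HLC and mESC and was not called there. In adult hepatocytes against mESC 3 of 17 rose and 4 fell, shares not far from the 11.0% and 15.6% of all genes. The largest were Myof, which fell by 4.55 ± 0.26, and Cavin2, Smpd1 (acid sphingomyelinase) and Capn2, which rose by 2.89, 2.72 and 2.31. Myof and Cav1 were dim on all adult arrays, and Cav1, Cavin2 and Dysf on all mESC arrays. This limits what the sizes of their differences can tell. Dysf was also uneven within ES_HLC, at 6.77, 6.51 and 8.80 on arrays 1 to 3.

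The lipid that annexin A5 binds is moved between the faces of the membrane by scramblases and flippases. Of 6 measured genes of this kind, 4 rose and 0 fell in ES_HLC against mESC, beside 8.61% and 7.35% of all genes: the flippase Atp11a (2.06 ± 0.28), its subunit Tmem30a (2.0 ± 0.19), the scramblase Ano6 (1.68 ± 0.21) and Plscr3 (1.58 ± 0.22). Against adult hepatocytes Ano6 (3.25 ± 0.22), Atp11a (2.22 ± 0.30) and Plscr3 (1.81 ± 0.24) rose and 0 fell, beside 13.9% and 9.12% of all genes. Under cyclic loess Tmem30a was called lower in ES_HLC than in adult hepatocytes, at -1.04 (limma adjusted p = 0.00142). Xkr8 differed by -0.87 between ES_HLC and mESC, without overlap, which is under the fold limit. In adult hepatocytes against mESC, Tmem30a rose by 2.60 and Ano6 fell by 1.56.

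A list of 10 genes, all measured, covered the recognition of exposed phosphatidylserine. Against mESC 2 of 10 rose in ES_HLC, the receptor tyrosine kinase gene Axl (4.36 ± 0.23) and its ligand gene Gas6 (2.58 ± 0.27), and 1 fell, Tyro3, by 1.42 ± 0.19. With 8.61% of all genes higher and 7.35% lower, these counts are close to the background. Against adult hepatocytes 3 rose and 4 fell, beside 13.9% and 9.12% of all genes. Mfge8, a bridging protein that binds phosphatidylserine, was higher by 4.29 ± 0.34 and Axl by 2.78 ± 0.24, while Stab2, a scavenger receptor of sinusoidal endothelium, fell by 3.56 ± 0.22 and Mertk fell by 1.89 ± 0.23. In adult hepatocytes against mESC 6 of 10 rose and 2 fell, beside 11.0% and 15.6% of all genes.

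**Figure D4:**
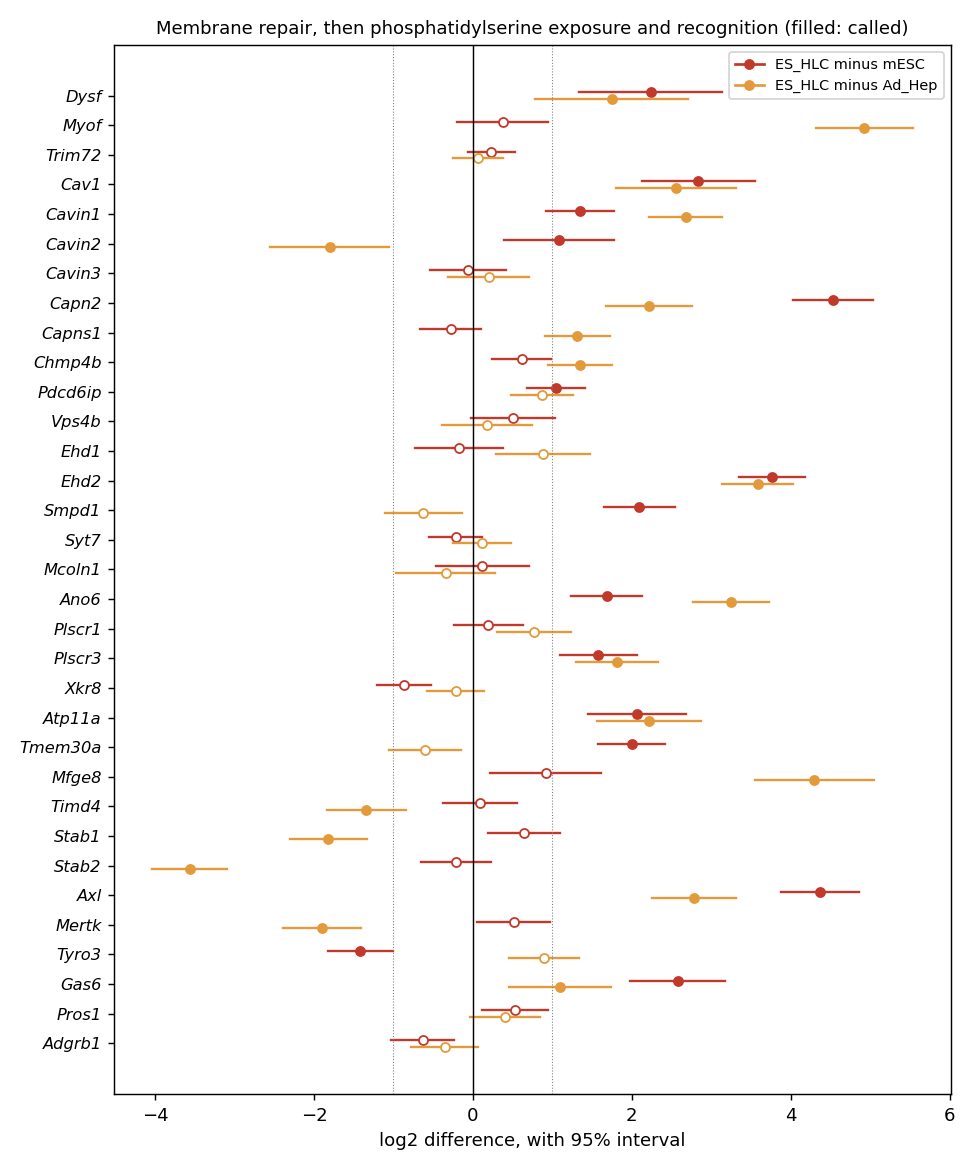
Log2 differences, with 95% intervals, of the genes of the membrane repair and phosphatidylserine lists in the comparisons of ES_HLC. Filled points were called, and dotted lines mark a difference of 1 either way. Capn2, Ehd2, Cav1 and Axl lie beyond 2 against both other kinds, and Stab2 lies below -3 in the comparison with adult hepatocytes.

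Markers of other cell types also differed between the kinds of cells. The mean log2 level of 10 stellate cell and fibroblast markers was 8.86, 8.09 and 7.04 on ES_HLC arrays 1 to 3, against 6.23 to 6.38 in adult hepatocytes and 4.92 to 5.19 in mESC. Of these 10 genes, 6 rose and 0 fell against mESC, and 5 rose and 3 fell against adult hepatocytes, beside 8.61% and 7.35%, and 13.9% and 9.12%, of all genes. The 3 that fell were Dcn, Lrat and Reln. They averaged 9.03, 7.92 and 7.22 in Ad_Hep, against 7.13, 4.36 and 4.88 in ES_HLC. Lrat and Reln, markers of quiescent stellate cells, were dim on all ES_HLC arrays. The mean of 5 measured cholangiocyte markers was 7.07, 7.71 and 6.90 on ES_HLC arrays 1 to 3, against 4.74 to 4.88 in Ad_Hep and 5.55 to 5.72 in mESC. Of these 5, 3 were higher and 0 lower than in mESC, beside 8.61% and 7.35% of all genes. Against Ad_Hep 4 were higher and 0 lower, beside 13.9% and 9.12%. Epcam differed from mESC by -0.89, without overlap, and was not called. Cftr was dim on all arrays. The part of these cell types in the annexin levels was not tested.

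Markers of immune and endothelial cells, which are also known to hold Anxa1, Anxa2 and Anxa5, were also followed. In ES_HLC against adult hepatocytes 8 of 10 Kupffer cell and macrophage genes and 5 of 8 endothelial genes fell and 0 rose, where 9.12% of all genes were lower. Of the neutrophil and lymphocyte genes 1 of 7 fell and 0 rose, near that share. The Kupffer cell and macrophage list averaged 4.85 to 4.88 in ES_HLC, against 6.31 to 6.62 in Ad_Hep and 4.87 to 4.95 in mESC, and 7 of its 10 genes were dim on all ES_HLC arrays, Clec4f and Adgre1 among them. Only Marco was dim on all adult arrays. The endothelial list of 8 averaged 5.21 to 5.76 in ES_HLC, against 7.37 to 7.41 in Ad_Hep and 5.21 to 5.43 in mESC. Against mESC 2 of its genes rose in ES_HLC, Kdr (2.63 ± 0.24) and Cdh5 (1.72 ± 0.25). Pecam1 (-3.07 ± 0.19) and Tek (-1.61 ± 0.20) fell, where 8.61% of all genes were higher and 7.35% lower. The neutrophil and lymphocyte list stayed between 4.13 and 4.31 in ES_HLC, against 4.53 to 4.82 in Ad_Hep and 4.47 to 4.71 in mESC. In adult hepatocyte samples Kupffer, endothelial and stellate cell transcripts were thus present, and their part in the adult annexin levels was not tested.

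**Figure D5:**
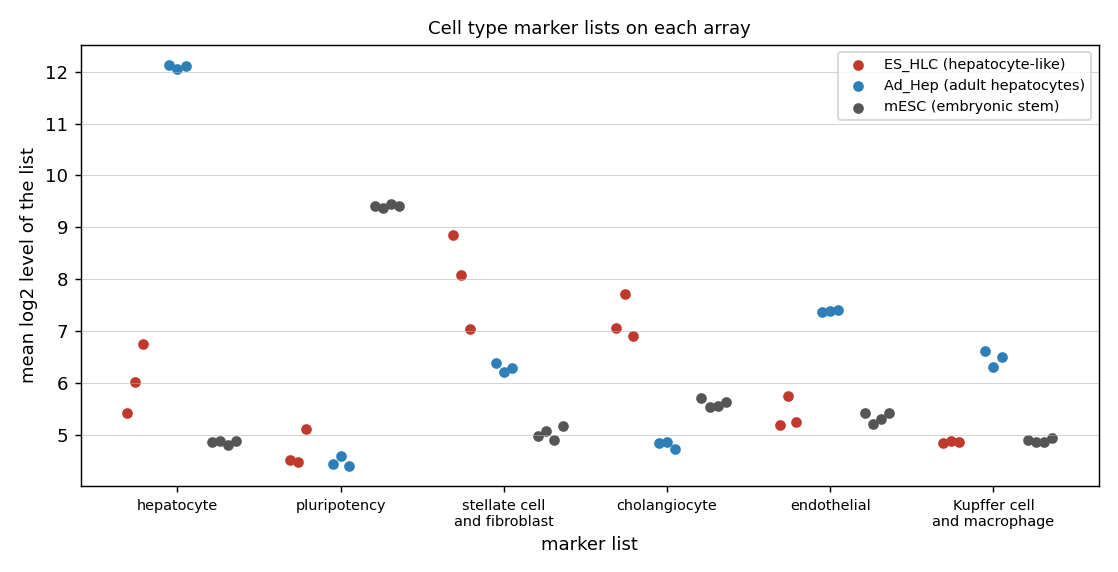
Mean log2 level of each cell type marker list on each array, with ES_HLC, Ad_Hep and mESC side by side. ES_HLC lies near mESC in the hepatocyte list (5.43 to 6.76 against 4.80 to 4.90), far below the adult arrays at 12.05 to 12.13, and above both in the stellate and fibroblast and the cholangiocyte lists.

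Over the 10 arrays, which fall into 3 kinds, the gene most like Anxa2 was Anxa5, with a Pearson r of 0.994 and a Spearman rho of 0.855. F2r, the thrombin receptor (r = 0.993, rho = 0.855), and Pgf, placental growth factor (r = 0.992, rho only 0.673), followed. For Anxa1 the nearest were Dstn, the actin-severing destrin (r = 0.992, rho = 0.976), the copper transporter Atp7a (r = 0.988) and the tropomyosin Tpm4 (r = 0.985). For Anxa3 they were the small heat shock protein gene Cryab (r = 0.992), Gyg, glycogenin (r = 0.991), and the receptor Tnfrsf12a (r = 0.991), and for Anxa5, after Anxa2, Slc25a24 and F2r (r = 0.993 each). The same arrays and the same 3 kinds stand behind each value, so these are descriptions with no p.

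The annexins with other patterns had other neighbours. Anxa6 was nearest to Atxn1l (r = 0.984, rho = 0.988), Pdlim5 (r = 0.970) and Fam126a (r = 0.965). Anxa8 was nearest to Slc4a11 (r = 0.974), Glp1r (r = 0.959) and Cdc14a (r = 0.958). Anxa7 was nearest to Psmg2 (r = 0.954), Vps26a (r = 0.947) and Eomes (r = 0.946), and Anxa4 to the autophagy gene Map1lc3b (r = 0.931), Wdr45 (r = 0.905) and Kdsr (r = 0.884).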

How the data were processed

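RNA of 10 mouse samples was isolated with TRIzol, biotin-labelled and hybridised to Affymetrix arrays, per the labels' protocols. The deposited table holds log2 values of 41345 transcript clusters on 10 arrays, and no further normalization was applied to it. Per the submitters' processing notes, the authors used Transcriptome Analysis Console, RMA, R 3.3.1 and oligo 1.38.0, with no role stated for any. No source names the genome build. The log2 scale was inferred from the range of the deposited values, 1.27 to 13.58. No scanner files were used, so background was not tested and a level under 5.5 was called dim.

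The platform annotation gave 23521 clusters 1 symbol, 1814 several and 16010 none. For 1082 genes with several clusters, the one with the highest mean was kept, leaving 22180 genes. All were tested in R 4.3.3 with limma 3.58.1 (linear models and empirical Bayes, 2-sided, 1 fit of 10 arrays on group means, 7 residual degrees of freedom), with Benjamini-Hochberg adjustment over all genes. A call needs a size of difference of 1 or more (log2) with an adjusted p below 0.05. The same code was tested on simulated data: of 100 genes shifted by 1.5 and 100 shifted by 3 among 22180, it called 86% and 100% for ES_HLC against mESC (4 false calls), 76% and 100% for ES_HLC against Ad_Hep (3 false calls) and 81% and 99% for Ad_Hep against mESC (3 false calls).

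The annexins and the 13 gene lists were chosen with earlier results of these data known. Named were all annexins, all measured partners and up to 4 called genes of each other membrane list per comparison. Up to 4 genes of each cell type list and the 3 genes most like each annexin were named too. The latter left out predicted genes, clone names, small RNAs and pseudogenes, by patterns in the symbol. These patterns also left out olfactory and vomeronasal receptor genes and every gene whose symbol starts with C, D or E and a digit. Plots were made in matplotlib 3.10.9 (Python 3.11.15). Alternatives were other normalizations, thresholds, variance models and cluster rules, a filter on dim genes, the replicate block and each array left out.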

Additional observations from a re-analysis of the deposited data

Results flagged for a closer look

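Anxa1 in mESC replicate 3 was far from the other arrays of its kind, at a log2 level of 7.58 where the other 3 mESC arrays lay between 6.38 and 6.40. The gap was 0.983 of the whole range, above Dixon's 95% critical value for 4 samples. It was the only one of 57 genes checked in the mESC arrays to pass that value, and chance alone passes it in about 1 group in 20. Without this array the difference of Anxa1 was 4.71 for ES_HLC against mESC and -1.66 for Ad_Hep against mESC, and both calls held.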

How the results depend on the processing

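The call of each of the 8 measured annexins, and its direction where called, was the same in all 480 values from the alternatives that kept the limits of a call, and 0 results reversed while called. With an adjusted p under 0.01 the annexin counts were also as reported. With no limit on the log2 difference, 6390 genes were called for ES_HLC against mESC, 8003 for ES_HLC against Ad_Hep and 9205 for Ad_Hep against mESC, 4 annexins were lower in Ad_Hep than in mESC, with Anxa5 and Anxa7 added, and 6 were higher in ES_HLC than in Ad_Hep, with Anxa6 added. With the limit of 1 these counts were 3540, 5106, 5893, 2 and 5. Leaving out 1 array at a time gave 3349 to 3719, 4933 to 5272 and 5797 to 6010 genes called, and always 5, 5 and 1 annexins higher and 0, 0 and 2 lower. Leaving out 1 array moved the difference of Anxa8 from mESC in ES_HLC between -0.49 and 1.09, of Anxa7 between -0.88 and -0.21 and of Anxa1 against Ad_Hep between 6.11 and 6.64. Deviations of same-numbered ES_HLC and mESC arrays from their group means correlated at 0.03, -0.02 and 0.11. Those of ES_HLC and Ad_Hep arrays correlated at -0.13, 0.04 and -0.19, and of Ad_Hep and mESC arrays at 0.14, 0.09 and -0.09. So few arrays cannot show whether the replicate numbers pair the samples. The replicate block left the annexin counts at 5, 5 and 1 higher and called 3518, 5103 and 5926 genes. Median centring changed the split of ES_HLC against mESC to 1705 higher and 1848 lower, against 1909 and 1631. For single genes, the alternatives also covered the other annexins and the partner, membrane repair and phosphatidylserine lists. They did not cover the cell type marker lists or the genes chosen by likeness. Of the 2919 alternative values of these other listed genes, 27 lost a call and 13 gained one, over 14 genes. The cause was not tested. Levels under 5.5, such as Anxa1 and Anxa8 in adult hepatocytes, limit the size of a fold change.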
